A study of Danio rerio with 48 samples.

Results

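The genes described here encode the mitochondrial respiratory chain and the ATP synthase of zebrafish (Danio rerio) embryos. They were taken from the gene table by symbol: rows starting with ndufa, ndufb, ndufc, ndufs, ndufv, uqcr, cox4 to cox8, atp5 or sdha to sdhd, rows starting with mt-, and COX3, the table's name for mitochondrially encoded cytochrome c oxidase subunit III. The rule found 115 of the table's 36109 genes, 102 encoded in the nucleus and 13 encoded in mitochondrial DNA, and used no measured value. Of these, 98 nuclear and all 13 mitochondrially encoded members passed the filter on low counts and were tested. The 4 that were not tested were ndufb4, which had no count in any library, ndufs1, uqcrb and ndufa4l2b.

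The respiratory chain moves electrons from NADH and succinate to oxygen through complexes I to IV of the inner mitochondrial membrane and pumps protons, which ATP synthase, called complex V, uses to make ATP. Most subunits are encoded in the nucleus and imported, whereas a small set of hydrophobic core subunits of complexes I, III, IV and V is encoded and translated inside the organelle, and complex II is wholly nuclear. The fish egg carries maternally supplied mitochondria. The yolk of the embryo is surrounded by the yolk syncytial layer, a multinucleate tissue that takes up yolk lipid and exports it to the embryo as lipoproteins.

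All embryos were wild type (WT) and no treatment was given in the labels. Bulk RNA sequencing was done on the whole embryo and on the yolk, each at 6, 10, 26 and 48 hours after fertilization (hpf), with 4 libraries in each of the 8 groups. Whole-embryo samples contain the yolk, so the yolk is compared with a mixture of which it is a component. Nothing in the labels says that repeats came from separate clutches, so p-values measure the spread between these libraries, which may be technical. In bulk tissue, fewer cells of a type and less RNA per cell cannot be told apart.

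Library totals lay between 32302472 and 39765045 counts. The summed level of 10 yolk syncytial layer markers was 18600 to 22700 CPM (counts scaled to a common library total) in yolk at 6 hpf against 1600 to 2440 in whole embryo, and 108000 to 124000 against 3350 to 5480 at 48 hpf. Yolk at 26 hpf replicate 1 stood apart from the other yolk libraries of its age: its summed skeletal muscle markers were 5740 CPM against 33.2 to 120, its neural markers 695 against 101 to 146, and its yolk syncytial layer markers were the lowest of the group at 90200 CPM. The mean ratio of mitochondrially encoded to nuclear counts, the share of each class and the cox5ab share are also given without it. Other shares and fold differences at 26 hpf include it. The counts of called genes were refitted without it. Without it 5 mitochondrially encoded members fell in yolk from 26 to 48 hpf in place of 2, and 1 fell from 10 to 26 hpf in place of 2; the other counts that answer a comparison stayed within 1.5 times. Levels are CPM scaled by the trimmed mean of M-values (TMM), which assumes that most genes do not change. Between the tissues that is in doubt. Under TMM 24.8%, 24.5%, 20.6% and 22.8% of tested genes were called higher in yolk at 6, 10, 26 and 48 hpf. The shares called lower were 27.4%, 29.9%, 25.3% and 27.5%. Scaling by library totals alone in its place moved the median log2 change of all genes in yolk against whole embryo by -0.37, -0.87, -1.06 and -0.61 at 6, 10, 26 and 48 hpf. The shift was downwards, so a gene higher in yolk under TMM by less than its size takes its direction from the scaling. A gene lower in yolk under TMM stays lower with library totals. Ratios between members within a library do not depend on scaling.

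The mitochondrially encoded members had more counts per count of the nuclear members in yolk than in whole embryo at each of the 4 ages, and the ratio fell with age in both tissues. In yolk the 4 libraries held 23.5, 26.2, 26.5 and 16.6 mitochondrially encoded counts per nuclear count at 6 hpf. They held 9.86, 13.4, 13.5 and 12.4 at 10 hpf, 4.68, 6.36, 7.3 and 5.91 at 26 hpf, and 4.12, 4.63, 5.03 and 5.61 at 48 hpf. In whole embryo the values were 9.2, 7.43, 11.5 and 6.57 at 6 hpf, 5.97, 6.22, 5.58 and 4.74 at 10 hpf, 2.71, 3.52, 4.1 and 3.89 at 26 hpf, and 3.37, 3.13, 3.41 and 4.08 at 48 hpf. Yolk lay above whole embryo at every age with no overlap of the libraries, although the lowest yolk value at 48 hpf was close to the highest whole-embryo value. With the difference between the median log2 levels of the classes in place of summed counts, the tissues overlapped at 26 and 48 hpf. That difference was 5.83 to 6.38 in yolk and 5.23 to 6.13 in whole embryo at 26 hpf. At 48 hpf it was 5.4 to 6.02 and 5.28 to 5.58.

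The mean ratio was 23.2 ± 4.6 in yolk and 8.67 ± 2.16 in whole embryo at 6 hpf (SD, n = 4 each), a 2.68-fold difference. It was 2.18-fold higher in yolk at 10 hpf, 1.71-fold at 26 hpf and 1.39-fold at 48 hpf. From 6 to 48 hpf the ratio fell 4.79-fold in yolk, to 4.85 ± 0.632, and 2.48-fold in whole embryo, to 3.5 ± 0.408. The libraries of neighbouring ages did not overlap from 6 to 10 and from 10 to 26 hpf in either tissue, and overlapped from 26 to 48 hpf in both. Of 12 maternal oocyte markers 11 were in the file, none of them at 0 in all 4 libraries of a group. Their summed level also fell with age and was higher in yolk. It was 630 to 798 CPM in yolk and 249 to 270 CPM in whole embryo at 6 hpf, and 71 to 86 and 38.1 to 54 CPM at 10 hpf. At 26 hpf the yolk libraries had 13.9 (replicate 1), 25.3, 25.2 and 27.7 CPM and whole embryo 6.77 to 8.98 CPM. At 48 hpf the ranges were 11.7 to 22.2 and 3.21 to 6.23 CPM. The order of the groups was not that of the ratio. Whole embryo at 6 hpf had more of the markers than yolk at 10 hpf but the lower mean ratio, 8.67 against 12.3. The part of these markers in the ratio was not tested. Without yolk replicate 1 at 26 hpf the yolk mean at that age was 6.52 ± 0.711 (n = 3) in place of 6.06 ± 1.09. These are ratios of counts, without correction for transcript length, so they serve to compare libraries and not to count molecules.

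**Figure D1:**
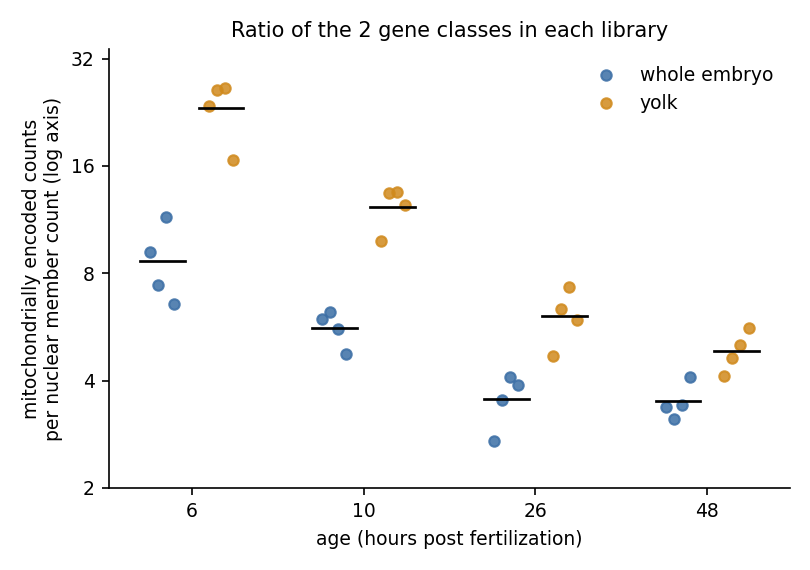
Counts of the 13 mitochondrially encoded members per count of the 102 nuclear members in each library, on a log axis, against age; points are libraries and bars are means of 4. Yolk lies above whole embryo at every age, from 16.6 to 26.5 against 6.57 to 11.5 at 6 hpf, and both fall towards 48 hpf.

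The fall of the ratio went with a rise of the nuclear members' share of all counts. In yolk 0.18 ± 0.0166% of the counts fell on nuclear members at 6 hpf and 0.564 ± 0.0304% at 48 hpf, a 3.14-fold rise. In whole embryo they took 0.274 ± 0.0604% and 0.7 ± 0.0314%, a 2.55-fold rise. The share was higher in whole embryo than in yolk at every age, by 1.53-, 1.59-, 1.62- and 1.24-fold, and the libraries of the tissues did not overlap. Without replicate 1, yolk at 26 hpf had 0.377 ± 0.0213% in place of 0.418 ± 0.0832%.

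The mitochondrially encoded members took a nearly level share in whole embryo, with means of 2.31 ± 0.415%, 2.28 ± 0.289%, 2.38 ± 0.249% and 2.44 ± 0.25% at the 4 ages. In yolk the share was 4.14 ± 0.781% at 6 hpf, 3.13 ± 0.451% at 10 hpf, 2.48 ± 0.338% at 26 hpf and 2.73 ± 0.345% at 48 hpf. Without replicate 1 it was 2.47 ± 0.412% in yolk at 26 hpf. The tissues overlapped at 10, 26 and 48 hpf and not at 6 hpf, when yolk was 1.79-fold higher. Of the nuclear share, complex V took most: 0.104% of counts in whole embryo at 6 hpf and 0.35% at 48 hpf, and 0.066% and 0.267% in yolk. Complex II was the smallest, at 0.00803% and 0.0277% in whole embryo and 0.0065% and 0.0235% in yolk.

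**Figure D2:**
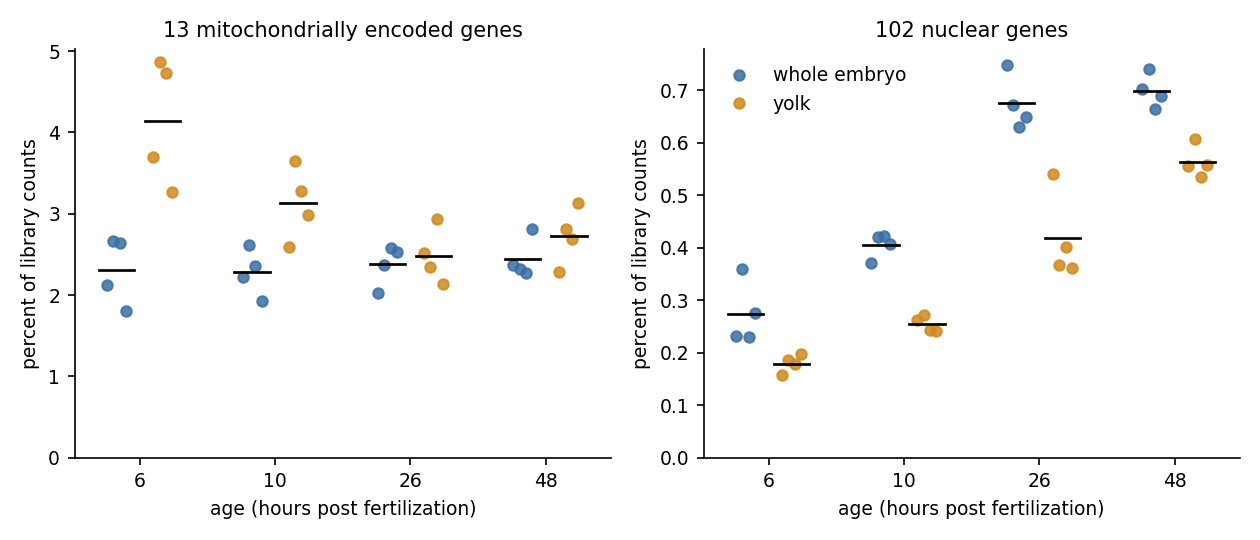
Percent of each library's counts that fell on the mitochondrially encoded and on the nuclear members, against age; points are libraries, bars are means of 4, and both axes start at 0. The nuclear share rises with age in both tissues and is lower in yolk, while the mitochondrially encoded share is highest in yolk at 6 hpf. These are parts of library totals, without TMM scaling.

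Each mitochondrially encoded gene was higher in yolk at every age under TMM scaling. mt-co1, the catalytic core of complex IV, stood at 14600, 14900, 15000 and 12800 CPM in the yolk libraries at 6 hpf and at 6620, 8760, 7500 and 5670 CPM in whole embryo. No whole-embryo library reached the lowest yolk library, and the log2 difference was 1.0 ± 0.16 (SE; adjusted p = 4.8e-06, edgeR quasi-likelihood test, Benjamini-Hochberg adjusted). mt-atp6, a proton channel subunit of complex V, stood at 6620, 8290, 7390 and 5310 CPM in yolk and 1900, 2590, 2570 and 1680 CPM in whole embryo at 6 hpf. Again there was no overlap, and the log2 difference of 1.66 ± 0.21 was 3.16-fold (adjusted p = 6e-08, same test). At 48 hpf mt-atp6 had 2200, 2940, 2940 and 4040 CPM in yolk and 1530, 1740, 1700 and 2460 CPM in whole embryo, which overlapped (0.71 ± 0.2, adjusted p = 0.0043, same test).

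All 13 members were called higher in yolk at 6, 10, 26 and 48 hpf with an adjusted p under 0.05, against 24.8%, 24.5%, 20.6% and 22.8% of all 26268 tested genes. Their median log2 differences were 1.24, 1.3, 1.21 and 0.76, beside -0.05, -0.22, -0.25 and -0.04 for all genes. mt-atp8 at 26 hpf was the least firm: 5.83, 5.78, 8.19 and 3.73 CPM in yolk overlapped 3.99, 3.74, 2.81 and 4.2 CPM in whole embryo, the adjusted p was 0.037, and it was 0.086 with a replicate block within the groups compared. With library totals alone, 12 of the 13 were called higher at 6 hpf, 6 at 10 hpf, 1 at 26 hpf and 0 at 48 hpf (1 at an unadjusted p under 0.05), beside 19.1%, 15%, 10% and 11.5% of all genes. The 1 gene at 26 hpf was mt-cyb, cytochrome b of complex III, at 3230, 4130, 6430 and 5220 CPM in yolk and 1200, 1530, 1620 and 1800 CPM in whole embryo.

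When libraries were scaled instead by the summed counts of the nuclear members, all 13 were higher in yolk at 6 and at 10 hpf, 11 at 26 hpf and 5 at 48 hpf, beside 27.3%, 21.3%, 15.2% and 15.3% of all genes. This scaling was chosen after the data were seen. On it, mt-co1 was 2.33-fold higher in yolk at 6 hpf and 1.42-fold at 48 hpf, and COX3 was 2.64-fold higher at 6 hpf (adjusted p = 5.3e-08) and 1.2-fold at 48 hpf (adjusted p = 0.21; edgeR quasi-likelihood tests, Benjamini-Hochberg adjusted).

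**Figure D3:**
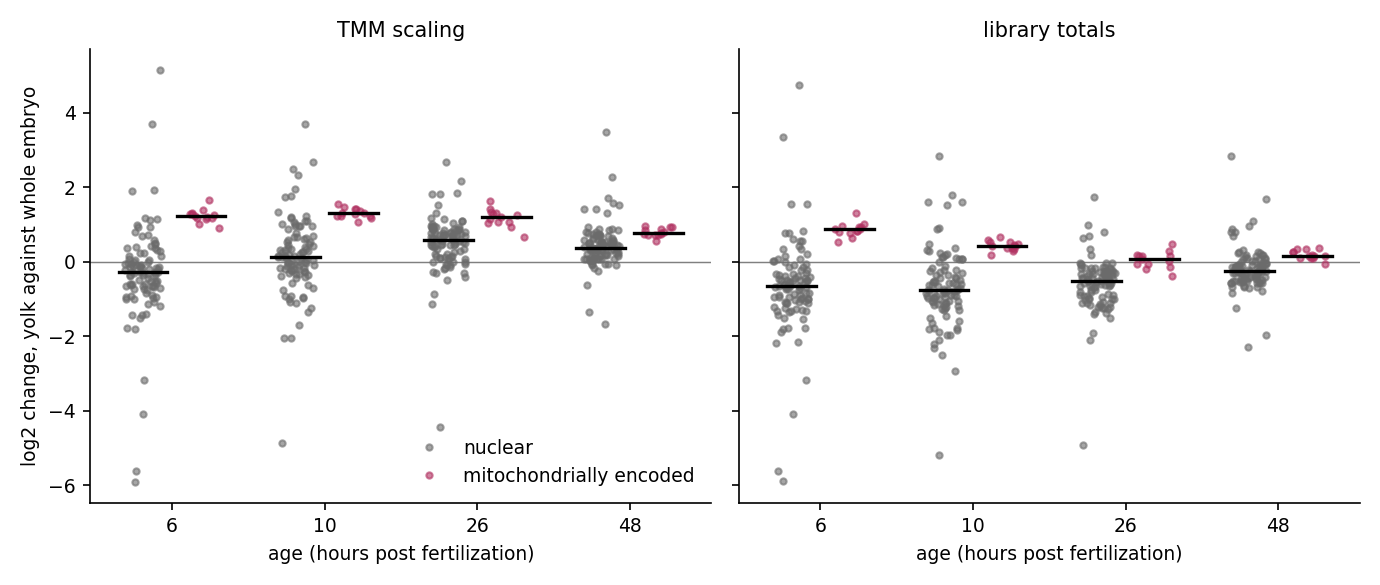
Log2 change of each tested member in yolk against whole embryo at each age, with TMM scaling on the left and library totals on the right; points are genes and bars are medians of the 98 nuclear and 13 mitochondrially encoded members. The mitochondrially encoded genes lie above the nuclear median in both panels, while the height of both classes against 0 differs between the scalings.

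From age to age, few mitochondrially encoded genes changed under TMM scaling. In yolk from 6 to 10 hpf none of the 13 was called by edgeR, beside 25.8% of all genes called higher and 23.4% lower, while 2 were lower at an unadjusted p under 0.05 and 1 was called lower by DESeq2. With a replicate block over all libraries 1 was called lower, and with the block within the groups compared 3 were. With library totals alone 4 were called lower (25.2% of all genes). From 10 to 26 hpf mt-atp8 and mt-nd4l fell in yolk (23.1% of all genes fell), by 0.99 ± 0.26 and 0.68 ± 0.24 on the log2 scale (adjusted p = 0.0022 and 0.017, edgeR quasi-likelihood test, Benjamini-Hochberg adjusted). Both overlap a neighbouring gene, mt-atp6 and mt-nd4, whose reads cannot be told apart where they overlap. With library totals alone 6 of the 13 fell in yolk at this step (23.4% of all genes fell). From 26 to 48 hpf COX3 and mt-cyb fell in yolk (16.1% of all genes fell), by 0.48 ± 0.16 and 0.62 ± 0.16 (adjusted p = 0.024 and 0.0042, same test), and the groups overlapped for both. Neither was called with library totals alone (adjusted p = 0.85 and 0.37), in a fit of only the groups compared (0.15 and 0.082) or with a replicate block there (0.31 and 0.22). Of the 8 fits that left out 1 library, 4 called COX3 and 8 called mt-cyb.

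In whole embryo, mt-co1 fell from 6620, 8760, 7500 and 5670 CPM at 6 hpf to 4490, 5200, 4910 and 4260 CPM at 10 hpf, without overlap (-0.6 ± 0.16, adjusted p = 0.0034, same test). mt-cyb and COX3 fell at the same step (20% of all genes fell), by 0.55 ± 0.16 and 0.43 ± 0.16, and with library totals alone none of the 3 was called. mt-nd3 was at 216, 277, 297 and 163 CPM at 10 hpf and at 163, 189, 90.6 and 155 CPM at 26 hpf, which overlapped (-0.67 ± 0.25, adjusted p = 0.023, same test; 26% of all genes fell). It was not called with library totals alone (adjusted p = 0.08), with DESeq2 (0.11) or with a replicate block within the groups compared (0.063), and 5 of the 8 fits that left out 1 library called it. From 26 to 48 hpf edgeR called none of the 13, beside 12.5% of all genes higher and 9.83% lower, and none passed an unadjusted p under 0.05 or was called by DESeq2. Relative to the nuclear members, 12 of the 13 fell in yolk from 6 to 10 hpf and 13 from 10 to 26 hpf, and 6 and 12 did in whole embryo, beside 37.5%, 38.5%, 24.9% and 39.2% of all genes. From 26 to 48 hpf, on the same scaling, 2 fell in yolk (8.79% of all genes rose and 15.4% fell), and none was called by edgeR in whole embryo (8.38% and 11.9%).

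The genes of mitochondrial DNA did not all keep the same proportions. mt-atp6 made up 9.71 ± 0.341% of mitochondrially encoded counts in whole embryo at 6 hpf and 13.3 ± 0.786% in yolk, without overlap. mt-co1 made up 31.9 ± 1.52% in whole embryo at 6 hpf and 27.6 ± 1.3% at 10 hpf. mt-cyb went from 12.4% at 6 hpf to 9.18% at 48 hpf in whole embryo, and in yolk was 11.9%, 11.7%, 12.7% and 10.3% at the 4 ages. The share of mt-nd1, a core membrane subunit of complex I, was 4.19% at 6 hpf and 6.3% at 10 hpf in whole embryo, and 4.07% and 5.18% in yolk. mt-nd6 lies on the other strand from the rest, and whether counting used strand is not given in the sources used here.

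The nuclear members behaved less uniformly between the tissues. At 6 hpf 13 of the 98 tested were higher in yolk and 34 lower (24.8% and 27.4% of all genes), at 10 hpf 29 and 14 (24.5% and 29.9%), at 26 hpf 49 and 1 (20.6% and 25.3%), and at 48 hpf 34 and 1 (22.8% and 27.5%). The median log2 differences were -0.28, 0.12, 0.59 and 0.38. At 48 hpf the number called higher was 65 with a replicate block within the groups compared. The share of all genes in that fit is not given, so nothing about the class is read from the larger number. With library totals alone the counts became 8 and 61, 5 and 59, 3 and 54, and 5 and 25 (all genes lower: 33.7%, 47%, 57% and 42.5%), so the direction of the nuclear class as a whole from 10 to 48 hpf turns with the scaling. The genes named below as higher or lower under all 3 scalings (TMM, library totals and nuclear members) form a selection made after the data were seen: 8 higher and 27 lower in yolk at 6 hpf, 5 and 14 at 10 hpf, 3 and 1 at 26 hpf, and 5 and 1 at 48 hpf. The share of all genes called under all 3 scalings was not counted, and 1 of the 3 centres the nuclear class itself. These counts serve to name genes and say nothing about the class.

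Under TMM scaling most nuclear members rose in yolk at the first 2 steps, whereas in whole embryo and from 26 to 48 hpf fewer did. In yolk 62 rose and 5 fell from 6 to 10 hpf (25.8% and 23.4% of all genes), 68 rose and 4 fell from 10 to 26 hpf (33.3% and 23.1%), and 12 rose and 10 fell from 26 to 48 hpf (12% and 16.1%). In whole embryo 24 rose and 6 fell from 6 to 10 hpf (21.2% and 20% of all genes), 38 and 6 from 10 to 26 hpf (30% and 26%), and 7 and 3 from 26 to 48 hpf (12.5% and 9.83%). Whole embryo at 6 hpf replicate 2 had the highest nuclear share of its group, 0.359% against at most 0.276%, and without it 37 members rose from 6 to 10 hpf in place of 24. No share of all genes is given for the fit without it. With library totals alone 52 rose and 5 fell in yolk from 6 to 10 hpf (22.6% and 25.2% of all genes), then 63 and 5 (31.9% and 23.4%). From 26 to 48 hpf 38 rose in yolk on this scaling (22.8%). In whole embryo it gave 53 up and 3 down from 6 to 10 hpf (28.7% and 10.9%), then 51 and 2 (32.1% and 21.3%). The smaller number rising in whole embryo at the first step thus depended on the scaling. The mean nuclear share rose 1.42-fold in yolk and 1.48-fold in whole embryo at the first step, then 1.64- and 1.67-fold. Under all 3 scalings 28 rose and 5 fell in yolk from 6 to 10 hpf and 22 rose and 4 fell from 10 to 26 hpf. In whole embryo 20 rose and 3 fell, then 19 rose and 2 fell. For these counts, too, no share of all genes was counted, so nothing is read from their size.

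Complex I accepts electrons from NADH, and 35 of its 37 nuclear members were tested. In yolk against whole embryo, 4 were higher and 13 lower at 6 hpf (24.8% and 27.4% of all genes), and 11 and 6 at 10 hpf (24.5% and 29.9%). At 26 and 48 hpf 20 and 4 were higher (20.6% and 22.8% of all genes) while the others did not pass. From 6 to 10 hpf 22 rose and 1 fell in yolk (25.8% and 23.4% of all genes), and from 10 to 26 hpf 26 rose and 1 fell (33.3% and 23.1%). In whole embryo 9 rose and 2 fell (21.2% and 20% of all genes), then 11 rose and 1 fell (30% and 26%). The lower genes at 6 hpf under all 3 scalings included ndufab1a and ndufab1b, the copies of the mitochondrial acyl carrier protein.

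ndufv1, the flavoprotein that binds NADH, was higher in yolk at 6 hpf and, under TMM scaling, level with whole embryo at 26 hpf. It stood at 32.3, 34.9, 34 and 43.8 CPM in yolk at 6 hpf and 14.6, 19.2, 14.9 and 16.6 CPM in whole embryo. At 26 hpf it stood at 101, 73.5, 93.7 and 111 CPM in yolk and 114, 102, 102 and 89.3 CPM in whole embryo. The tissues were apart at 6 hpf (1.15 ± 0.16, adjusted p = 5.7e-07) and overlapped at 26 hpf (-0.1 ± 0.16, adjusted p = 0.63; edgeR quasi-likelihood test, Benjamini-Hochberg adjusted). As a part of the library total, ndufv1 in each yolk library lay below each whole-embryo library at 26 hpf. Whether the tissues were level there thus depends on the scaling. The rise from 10 to 26 hpf was smaller in yolk than in whole embryo, by 1.2 ± 0.23 on the log2 scale (adjusted p = 0.00015, same test).

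ndufa10 and ndufa3, accessory subunits, took the opposite course. ndufa10 was at 17.4, 14.7, 14.7 and 23.1 CPM in yolk and 35.9, 70.4, 39.1 and 42.6 CPM in whole embryo at 6 hpf. ndufa3 was at 10.5, 9.52, 9.56 and 10.6 CPM in yolk and 26.9, 27.4, 25.2 and 22.4 CPM in whole embryo at 10 hpf. The yolk libraries lay below all whole-embryo libraries in both (ndufa10 -1.43 ± 0.19, adjusted p = 2.4e-07; ndufa3 -1.34 ± 0.18, adjusted p = 3.1e-07; same test). ndufa3 then rose in yolk to 32, 31.7, 33 and 46.7 CPM at 26 hpf, and its rise from 10 to 26 hpf exceeded that in whole embryo by 1.64 ± 0.26 (adjusted p = 1.3e-05, same test). For ndufa10 that difference was 0.98 ± 0.27 (adjusted p = 0.0058, same test).

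ndufb10, a subunit of the membrane arm, rose in both tissues. In yolk it went from 3.81, 3.32, 2.49 and 3.76 CPM at 6 hpf to 16.7, 10.2, 10.8 and 10.6 CPM at 10 hpf and 35.1, 33.5, 49.3 and 48 CPM at 26 hpf. In whole embryo it went from 2.54, 6.13, 3.21 and 3.72 CPM to 10.1, 12.9, 8.84 and 13.5 CPM and then to 26.4, 25.3, 25.3 and 26.9 CPM. No libraries of neighbouring ages overlapped, and each step passed the test, with log2 changes of 1.85 ± 0.22 and 1.78 ± 0.21 in yolk (adjusted p = 3.2e-08 and 3.9e-08) and 1.53 ± 0.21 and 1.2 ± 0.21 in whole embryo (adjusted p = 1e-06 and 1.8e-05; same test).

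Complex II, succinate dehydrogenase, links the tricarboxylic acid cycle to the chain, and its members differed between the tissues in both directions at 6 hpf. Of its 5 members, 2 were higher and 2 lower in yolk at 6 hpf (24.8% and 27.4% of all genes), and 3 and 1 at 10 hpf (24.5% and 29.9%). At both 26 and 48 hpf 3 were higher (20.6% and 22.8% of all genes) while the others did not pass. sdhc, a membrane anchor that holds heme, was at 13.6, 25.1, 13.9 and 20 CPM in yolk at 6 hpf and at 42.1, 45.3, 39.9 and 42 CPM at 10 hpf. Whole embryo had 9.78, 11.4, 7.63 and 9.6 CPM, then 9.07, 13.5, 13.6 and 14.2 CPM. Yolk lay above whole embryo without overlap at both ages, by 0.92 ± 0.21 (adjusted p = 0.00037) and 1.75 ± 0.21 (adjusted p = 2.7e-08; edgeR quasi-likelihood test, Benjamini-Hochberg adjusted).

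sdhdb, a copy of the other membrane anchor, was also higher in yolk under all 3 scalings at 6 and 10 hpf, at 31.8, 34.4, 30.2 and 35.4 CPM against 8.85, 9.73, 10.2 and 9.94 CPM at 10 hpf (1.77 ± 0.19, adjusted p = 3e-09, same test). sdha, the flavoprotein that oxidizes succinate, was lower in yolk at these ages, at 16.8, 19.2, 27.2 and 22.9 CPM against 28.1, 33.4, 37.9 and 37.1 CPM at 6 hpf (-0.66 ± 0.14, adjusted p = 0.00015, same test). These groups did not overlap. sdhda, the paralog of sdhdb, was near 0, with no count in yolk at 6 hpf and at most 8 counts in a whole-embryo library, where it was called lower in yolk (adjusted p = 0.021, same test). sdhb, the iron-sulfur subunit, was not called at 6 hpf (-0.05 ± 0.15, adjusted p = 0.8, same test). sdha rose from 10 to 26 hpf in both tissues, by 1.78 ± 0.14 in yolk (adjusted p = 1e-11) and 1.24 ± 0.14 in whole embryo (adjusted p = 1.3e-08, same test).

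Complex III passes electrons from ubiquinol to cytochrome c, and 7 of its 8 nuclear members were tested. In yolk against whole embryo 2 were lower at 6 hpf, near the share of all genes (27.4%). At 10, 26 and 48 hpf 3, 4 and 3 were higher (24.5%, 20.6% and 22.8% of all genes), and the others did not pass. uqcrh, the hinge protein that docks cytochrome c, was at 148, 132, 152 and 123 CPM in yolk and 74.3, 66.5, 99.1 and 60.5 CPM in whole embryo at 10 hpf, without overlap. The log2 difference was 0.88 ± 0.15 at 10 hpf (adjusted p = 1.5e-05) and 0.92 ± 0.15 at 48 hpf (adjusted p = 1.2e-05, same test), and with library totals alone it was 0 and 0.31 and was not called.

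uqcrc2a, a core protein of complex III, rose at both early steps in both tissues. In yolk it went from 9.79, 14.2, 7.97 and 11.4 CPM at 6 hpf to 41.5, 50.1, 35.6 and 31.9 CPM at 10 hpf and 103, 108, 122 and 154 CPM at 26 hpf. In whole embryo it went from 10.5, 13.5, 8.68 and 12.6 CPM to 25.8, 30.2, 26.1 and 32.3 CPM and 79.5, 77.2, 75.5 and 66.5 CPM. No neighbouring groups overlapped, and the first step was 1.87 ± 0.18 in yolk (adjusted p = 5.6e-10) and 1.34 ± 0.18 in whole embryo (adjusted p = 4e-07, same test). As a share of the counts of uqcrc2a and its paralog uqcrc2b together, it went from 15.3% at 6 hpf to 52.6% at 26 hpf in yolk and from 13.3% to 44.7% in whole embryo.

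Complex IV, cytochrome c oxidase, reduces oxygen, and several of its nuclear subunits have paralogs that replace each other by tissue or condition in mammals. Of 21 tested nuclear members, which include the ndufa4 family, 3 were higher and 9 lower in yolk at 6 hpf (24.8% and 27.4% of all genes). The counts were 5 and 1 at 10 hpf (24.5% and 29.9%) and 12 and 1 at 48 hpf (22.8% and 27.5%). At 26 hpf 11 were higher (20.6% of all genes) and the others did not pass. Shares within a paralog pair are shares of counts, not corrected for length, and near-identical stretches may share reads. Low values carry few counts in this table, where 79.4% of counts from 1 to 20 were even numbers. The members lower in yolk at 6 hpf, also under all 3 scalings, included cox6b1 and ndufa4l2a, whose calls rest on few counts. Both had no count in yolk at 6 hpf and at most 16 and 6 counts in a whole-embryo library.

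cox4i2, whose mammalian counterpart is the oxygen-sensitive form of subunit 4, had a single high group, yolk at 10 hpf. It stood there at 12.5, 13, 11.6 and 8 CPM, against 1.05, 0.83, 0.732 and 0.542 CPM in yolk at 6 hpf and 1.28, 1.71, 1.05 and 1.44 CPM at 26 hpf. Whole embryo had 1.46, 1.14, 1.96 and 2.46 CPM at 10 hpf. Yolk at 10 hpf overlapped none of these groups. The log2 difference to whole embryo was 2.68 ± 0.37, or 6.39-fold (adjusted p = 4.1e-07), and the changes within yolk were a rise of 3.83 ± 0.4 (adjusted p = 2.6e-09) and a drop of 3.03 ± 0.38 (adjusted p = 8.8e-08; edgeR quasi-likelihood test, Benjamini-Hochberg adjusted). At 48 hpf the order was turned, with 1.69, 0.954, 0.996 and 1.51 CPM in yolk and 4.5, 2.78, 3.3 and 2.56 CPM in whole embryo (-1.35 ± 0.36, adjusted p = 0.0025, same test). In the pair with cox4i1, cox4i2 took 9.94 ± 0.767% of counts in yolk at 10 hpf and at most 2.73% on average in the other groups.

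cox6b1 and ndufa4 were near 0 at 6 and 10 hpf and rose at 26 and 48 hpf. cox6b1, a subunit on the intermembrane face, was at 0 in all 4 yolk libraries at 6 hpf and in 3 of 4 at 10 hpf. It reached 8.41, 6.46, 8.29 and 6.82 CPM in yolk at 26 hpf and 64.5, 66, 57.9 and 52.1 CPM at 48 hpf. In whole embryo it reached 2.76, 5.26, 2.78 and 5.47 CPM, then 23.7, 21.4, 19.9 and 16.2 CPM. The rise from 26 to 48 hpf was 3.0 ± 0.62 in yolk (adjusted p = 0.00065) and 2.32 ± 0.61 in whole embryo (adjusted p = 0.0067, same test). At 48 hpf yolk was above whole embryo without overlap, by 1.57 ± 0.59 (adjusted p = 0.029, same test), and the call was kept in 2 of the 8 fits that left out 1 library.

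The share of cox6b1 in the counts of cox6b1 and cox6b2 was 38.8 ± 1.56% in yolk and 21.8 ± 1.72% in whole embryo at 48 hpf. ndufa4, a complex IV subunit in human cells, was at 0 in all yolk libraries at 10 hpf and at 39, 39.3, 24.7 and 28.4 CPM at 48 hpf, when whole embryo had 57.8, 52.4, 47.2 and 43.9 CPM. The libraries did not overlap, but the difference of -0.62 ± 0.58 did not pass the test (adjusted p = 0.4); with a replicate block within the groups compared its adjusted p was 0.00062 (edgeR quasi-likelihood test, Benjamini-Hochberg adjusted). In the pair with ndufa4l it took 15.2 ± 3.01% of counts in yolk and 33.3 ± 3.82% in whole embryo. Yolk thus had the larger share for cox6b1 and the smaller for ndufa4.

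cox8b, a heart and skeletal muscle form in rodents, was highest in yolk at 48 hpf. Its levels there were 19.2, 14, 14 and 10.9 CPM, against 0.926, 1.71, 1.46 and 1.14 CPM in whole embryo and 0.522, 0.239, 0.667 and 1.17 CPM in yolk at 26 hpf. Neither group reached the yolk libraries of 48 hpf, and the differences were 3.47 ± 0.84, or 11.1-fold (adjusted p = 0.001), and 4.49 ± 0.9 (adjusted p = 0.00033, same test). In the same libraries all 12 skeletal muscle markers summed to 117 to 247 CPM in yolk and 28200 to 34500 CPM in whole embryo, and the 7 heart muscle markers to 30.4 to 45.4 and 272 to 349 CPM. Of the other members named for muscle forms in mammals, cox7a1 had 1.06, 0.813, 0.968 and 0.642 CPM in yolk and 0.287, 0.145, 0.12 and 0.157 CPM in whole embryo at 48 hpf (2.28 ± 0.99, adjusted p = 0.06, same test). cox6a2 stayed at or below 1.98 CPM in every library.

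cox5ab and cox7a2l were higher in yolk at 26 and 48 hpf under TMM scaling. Under all 3 scalings cox5ab was called higher at both ages and cox7a2l at 48 hpf only. cox5ab, a copy of subunit 5a, stood at 89.3, 105, 149 and 157 CPM in yolk and 43.7, 37.6, 30.8 and 28.4 CPM in whole embryo at 26 hpf. cox7a2l, whose mammalian counterpart takes part in joining complexes III and IV, stood at 73.9, 51.2, 58.3 and 53.2 CPM in yolk and 23.7, 25.8, 20.2 and 26.2 CPM in whole embryo at 48 hpf. Neither pair of groups overlapped (cox5ab 1.83 ± 0.22, adjusted p = 7.6e-08; cox7a2l 1.3 ± 0.17, adjusted p = 2.5e-07; same test). In the pair with cox5aa, cox5ab took 44.6%, 51.7%, 56.8% and 44.1% of counts in yolk and 31.4%, 31.9%, 36.4% and 29.5% in whole embryo at the 4 ages, and 58.9 ± 1.93% in yolk at 26 hpf without replicate 1. cox4i1l and cox5b2 were higher in yolk at 6 hpf at low levels, up to 1.46 and 1.51 CPM against at most 0.107 and 0.0535 CPM.

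**Figure D4:**
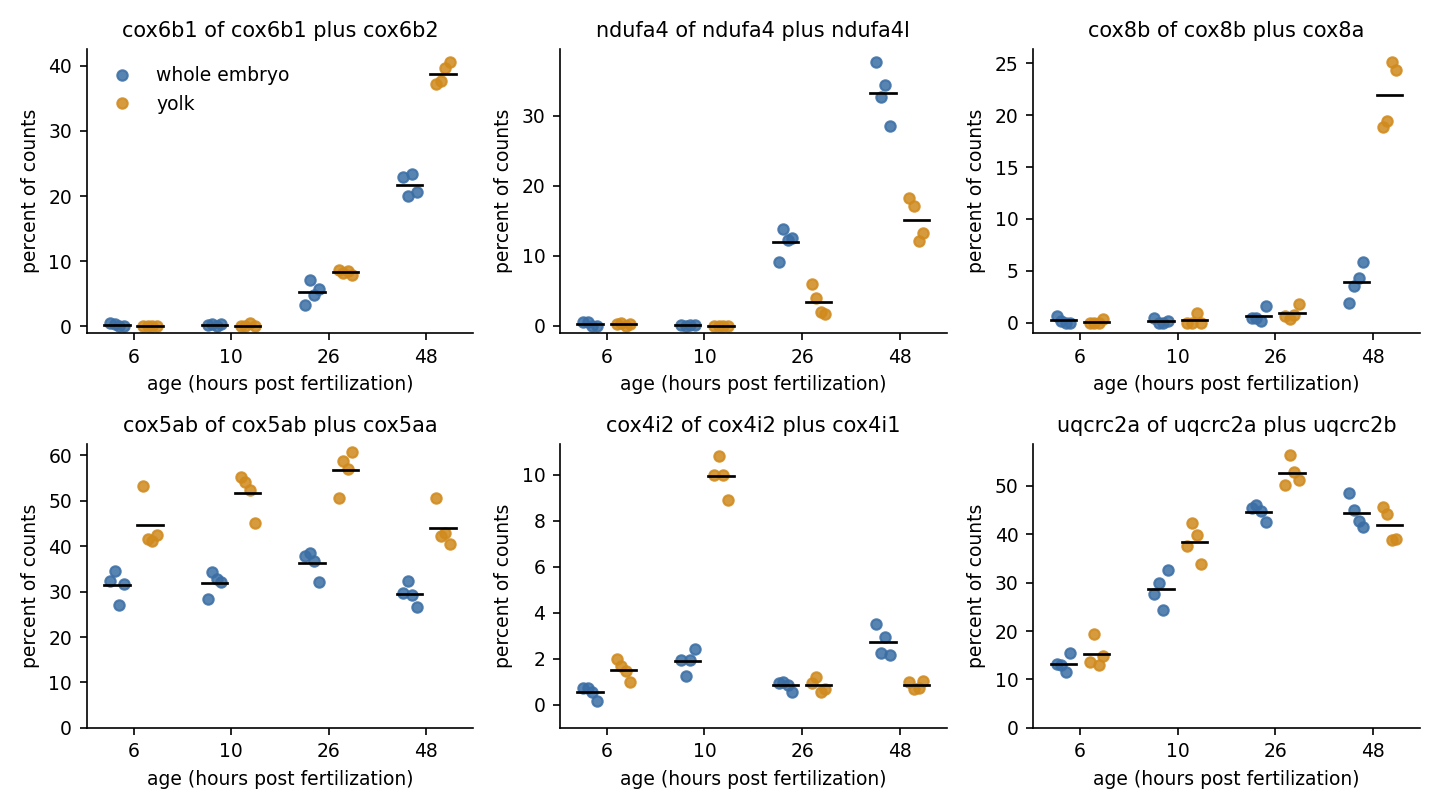
Percent of the counts of 6 paralog pairs that fell on the first-named gene, against age; points are libraries and bars are means of 4. cox6b1 and ndufa4 appear at 26 and 48 hpf, with yolk above whole embryo for cox6b1 and below it for ndufa4. The share of cox8b rises at 48 hpf, when yolk lies above whole embryo, and the tissues overlap at 26 hpf. cox4i2 peaks in yolk at 10 hpf with 9.94%, and cox5ab is higher in yolk throughout.

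Complex V makes ATP, and all 19 of its nuclear members were tested. In yolk against whole embryo 3 were higher and 5 lower at 6 hpf (24.8% and 27.4% of all genes), and 3 and 1 at 10 hpf (24.5% and 29.9%). At 26 and 48 hpf 6 and 5 were higher (20.6% and 22.8% of all genes) while the others did not pass. The 5 lower at 6 hpf and the 5 higher at 48 hpf were thus near the shares of all genes. In yolk 15 rose from 6 to 10 hpf (25.8% of all genes) and 15 from 10 to 26 hpf (33.3%). atp5f1b, the catalytic beta subunit, was at 127, 174, 169 and 183 CPM in yolk at 6 hpf, at 403, 425, 383 and 317 CPM at 10 hpf, and at 872, 749, 741 and 722 CPM at 48 hpf. In whole embryo it was at 143, 281, 151 and 226 CPM, then 251, 336, 315 and 324 CPM, and 831, 774, 716 and 690 CPM at 48 hpf. With TMM scaling the tissues overlapped at all 4 ages and none of the 4 differences was called. As a part of the library total, atp5f1b in each yolk library lay below each whole-embryo library at all 4 ages. Whether the tissues were level thus depends on the scaling. The first step in yolk was a rise of 1.23 ± 0.17 with TMM scaling (adjusted p = 5.1e-07, edgeR quasi-likelihood test, Benjamini-Hochberg adjusted).

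atp5if1b, a copy of the inhibitory factor that blocks ATP hydrolysis by the enzyme, rose in yolk between 6 and 10 hpf. It went from 2.93, 3.53, 3.37 and 2.37 CPM to 34.2, 34.5, 24.7 and 24.6 CPM, while whole embryo went from 3.18, 6.57, 2.48 and 2.62 CPM to 3.94, 6.39, 6.62 and 4.17 CPM. At 10 hpf the yolk libraries lay far above those of whole embryo, with a 5.58-fold difference (2.48 ± 0.28, adjusted p = 1e-08). The rise in yolk exceeded that in whole embryo by 2.77 ± 0.39 (adjusted p = 2.5e-06, same test). In the pair with atp5if1a it took 61.6% of counts in yolk and 20.3% in whole embryo at 10 hpf, and 57.4% and 61.7% at 48 hpf. atp5mc1, a gene of the rotor ring, fell in whole embryo from 74.8, 138, 68.6 and 73.8 CPM at 6 hpf to 29.2, 34.3, 34.2 and 35.2 CPM at 10 hpf (-1.42 ± 0.21, adjusted p = 2e-06, same test) and rose again to 113, 106, 101 and 102 CPM at 26 hpf.

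The symbol rule also took in 11 assembly factors, which help to build the complexes and are not part of them. In yolk against whole embryo 1 was higher and 3 lower at 6 hpf (24.8% and 27.4% of all genes), and 4 and 5 at 10 hpf (24.5% and 29.9%). At 26 hpf 5 were higher and 1 lower (20.6% and 25.3%). At 48 hpf 7 were higher (22.8% of all genes) and the others did not pass. ndufaf7, which methylates a core subunit of complex I in human cells, was at 1.34, 2.84, 2.56 and 1.56 CPM in yolk and 6.25, 7.35, 7.55 and 8.09 CPM in whole embryo at 6 hpf. At 48 hpf it was at 14.9, 13.3, 10.7 and 8.71 CPM in yolk and 4.59, 4.23, 3.58 and 4.23 CPM in whole embryo. The groups were apart at both ages and in opposite order, by -1.81 ± 0.26 (adjusted p = 6.8e-07) and 1.52 ± 0.25 (adjusted p = 1.1e-05, edgeR quasi-likelihood test, Benjamini-Hochberg adjusted), under all 3 scalings.

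sdhaf4, which helps the flavoprotein of complex II to assemble, was at 12.2, 20.8, 23 and 32.1 CPM in yolk and 4.83, 4.49, 4.2 and 6.04 CPM in whole embryo at 26 hpf. The groups were apart, by 2.17 ± 0.28 or 4.49-fold (adjusted p = 3.4e-07, same test). ndufaf4, a complex I factor, was the only nuclear member called lower in yolk at 26 hpf, at 2.23, 2.55, 2.48 and 1.17 CPM against 4.15, 3.57, 3.61 and 4.13 CPM (-0.87 ± 0.28, adjusted p = 0.013, same test). With a replicate block within the groups compared its adjusted p was 0.12. It rose in yolk to 4.37, 5.33, 5.24 and 4.8 CPM at 48 hpf, by 1.22 ± 0.28 (adjusted p = 0.0016, same test).

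The change from 6 to 10 hpf differed between yolk and whole embryo for 28 nuclear members upwards and 1 downwards (13.8% and 13% of all genes), that from 10 to 26 hpf for 23 and 4 (17.1% and 12.3%), and that from 26 to 48 hpf for 2 and 4 (9.29% and 13.2%). Without whole embryo at 6 hpf replicate 2, 16 members passed upwards in place of 28, with no share of all genes given for that fit. With library totals alone 3 passed upwards and 11 downwards at the first step (7.17% and 20.3% of all genes), 8 and 6 at the second (11.1% and 13.8%) and 13 and 1 at the last (17.1% and 7.58%), so the balance of directions at the first and last step turned with this scaling. Scaling by the nuclear members centres that class itself, so its balance of directions there is set by the scaling and nothing is read from it; the counts were 9 and 13 (7.67% and 17.9% of all genes), 12 and 7 (11% and 13.1%), and 3 and 3 (8.59% and 10.1%). Under all 3 scalings, for which no share of all genes was counted, 3 passed upwards for the first step: atp5if1b, sdhb and sdhda, of which sdhda rests on few counts. For the second step 8 passed upwards, among them ndufa3, ndufa10, ndufaf7 and cox7a2l, and 4 passed downwards: cox4i2, cox5b2, ndufv1 and sdhdb. Among the mitochondrially encoded genes edgeR called none for the first 2 steps, none passed there at an unadjusted p under 0.05 or by DESeq2, and COX3 and mt-cyb passed downwards for the last, by 0.74 ± 0.22 and 0.69 ± 0.23 (adjusted p = 0.017 and 0.029, edgeR quasi-likelihood test, Benjamini-Hochberg adjusted). Neither of these was called with library totals alone.

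Genes that supply or maintain the chain were counted in 7 further lists. Electron transfer flavoprotein, which hands electrons from fatty acid oxidation to ubiquinone, was higher in yolk at 48 hpf. etfb, its beta subunit, was at 435, 341, 369 and 350 CPM in yolk and 60.4, 68.1, 56 and 59.1 CPM in whole embryo at 48 hpf, and at 11.1, 15.3, 14.3 and 17.7 CPM in yolk at 6 hpf. Yolk at 48 hpf was above whole embryo without overlap, 6.14-fold (2.62 ± 0.18, adjusted p = 1.8e-12, edgeR quasi-likelihood test, Benjamini-Hochberg adjusted). At 6 hpf whole embryo had 17.7, 20.9, 15.4 and 17.3 CPM, and the tissues overlapped. At 48 hpf etfa, the alpha subunit, was 4.8-fold higher in yolk (adjusted p = 2.8e-09) and etfdh, the ubiquinone oxidoreductase, 3.23-fold (adjusted p = 4.2e-09, same test). The log2 differences of etfa, etfb and etfdh with library totals alone were 1.64, 2.0 and 1.06. In their list of 21 tested electron carriers and feeders, 7 were higher and 4 lower in yolk at 48 hpf (22.8% and 27.5% of all genes), with a median of 0.21.

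The 76 tested genes of the mitochondrial ribosome, which translates the mitochondrially encoded members, were mostly not higher in yolk before 48 hpf: 14 were higher and 27 lower at 6 hpf (24.8% and 27.4% of all genes), 6 and 33 at 10 hpf (24.5% and 29.9%), and 5 and 10 at 26 hpf (20.6% and 25.3%). At 48 hpf 59 were higher (22.8% of all genes) and the others did not pass, with a median of 0.72. Scaled by the nuclear members 35 were higher (15.3% of all genes). With library totals alone 3 were higher (11.5% of all genes, while 42.5% of all genes were lower). mrpl12 was at 45.5 ± 1.95 CPM in yolk and 19.3 ± 1.8 CPM in whole embryo at 48 hpf (adjusted p = 2.4e-06, same test). Of 29 genes for mitochondrial DNA transcription, RNA handling and copying, 8 were higher and 9 lower in yolk at 6 hpf, near the shares of all genes just given for that age. The counts were 2 and 19 at 10 hpf and 4 and 9 at 26 hpf. At 48 hpf 19 were higher (22.8% of all genes) and the others did not pass. With library totals alone 3 were higher and 2 lower at 48 hpf (11.5% and 42.5% of all genes). tfam, which packages and transcribes mitochondrial DNA, was at 5.02, 7.33, 5.85 and 7.42 CPM in yolk at 6 hpf and 13.8, 21.3, 13.5 and 11.3 CPM in whole embryo. It was lower in yolk without overlap at 6 hpf (-1.22 ± 0.18, adjusted p = 1e-06, same test). At this age all 13 mitochondrially encoded genes were called higher in yolk under TMM scaling (24.8% of all genes), and 12 with library totals alone (19.1% of all genes).

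Of 22 tricarboxylic acid cycle genes, 17 rose and 1 fell from 10 to 26 hpf in whole embryo (30% and 26% of all genes) and 16 rose and 1 fell in yolk (33.3% and 23.1%). Of 37 other assembly factors, 16 were higher in yolk at 48 hpf (22.8% of all genes) and the others did not pass. With library totals alone 3 were higher and 2 lower (11.5% and 42.5% of all genes). coa6, a complex IV assembly factor, was at 10.6, 14.7, 12 and 12 CPM in yolk and 1.26, 0.699, 0.809 and 1.29 CPM in whole embryo at 6 hpf, without overlap (12.1-fold, adjusted p = 9.1e-10, same test). Of 31 genes of the outer membrane and protein import, 17 were higher and 2 lower in yolk at 48 hpf (22.8% and 27.5% of all genes), and of 19 regulators of mitochondrial biogenesis 3 and 6, close to those shares. hspd1, the chaperonin of the matrix, was at 1330, 1100, 1460 and 1090 CPM in yolk and 146, 148, 153 and 171 CPM in whole embryo at 10 hpf, an 8.05-fold difference without overlap (adjusted p = 3.3e-15, same test).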

How the data were processed

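Bulk RNA was sequenced from 32 libraries of wild-type zebrafish, 4 from each of whole embryo and yolk at 6, 10, 26 and 48 hpf; 16 body tissue samples in the labels were not analysed here. The labels' protocols name TRIzol for extraction and a NEBNext Ultra II RNA kit for the libraries. The submitters' processing notes name STAR 2.7.10b as well as Trim Galore 0.6.10, featureCounts 2.0.6, FastQC 0.12.1 and the GRCz11 build. Not given in the sources used here were the annotation, the strand setting and the selection of RNA. The authors deposited 1 table of raw read counts per gene symbol. Of its values from 1 to 20, 79.4% were even, and the cause was not tested. The rows COX5B, COX7A2 (1 of many), NDUFAF8 and NDUFB1, in capitals, fell outside the symbol rule.

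Genes were tested with edgeR 4.0.16 in R 4.3.3: TMM scaling, filterByExpr (minimum count 10, minimum total 15), 8 group means over all 32 libraries with 24 residual degrees of freedom, the robust quasi-likelihood test, and Benjamini-Hochberg adjustment over 26268 genes for each of 13 contrasts, with a threshold of 0.05. Summed shares and ratios were described by library and had no test. Alternatives were library totals, DESeq2 1.42.0 size factors and its Wald test, no low-count filter, the groups compared only, a replicate block, and leaving out each library. Scaling by the summed counts of the nuclear members, and the block within the groups compared, were added after the data were seen. Shares of all genes called are given for TMM, library totals and nuclear-member scaling over all libraries, and not for the other fits. The scripts were tested on simulated counts.

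Over 9034 genes, same-numbered yolk and whole-embryo libraries deviated together at each age, with correlations from 0.19 to 0.43, and so did yolk at 6 and 10 hpf (0.22 to 0.3). In the other 5 steps at least 1 pair was under 0.1. The main tests did not use this pairing, also where the numbers deviated together. Adjusted p-values come from fits without a replicate block unless the block is named, and some calls moved with the block. The pairing comes from these correlations, since the labels give only repeat numbers. No libraries were duplicates: the lowest chi-square per gene between replicates was 17.6.

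The members and lists were chosen with earlier results of these data known. Named nuclear genes were, for each contrast and complex, up to 3 called members with the largest change in each direction, the 2 with the highest level, and all members of the paralog families; all mitochondrially encoded members could be named, and for the other lists the same rule held per list.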

Additional observations from a re-analysis of the deposited data

Results flagged for a closer look

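The values by library of 25 members, of the ratio and of both shares were compared within 222 groups of 4 libraries, and in 10 of them 1 library lay far from the other 3, beside about 1 in 20 that chance gives. The highest library was far from the rest for COX3 in yolk at 48 hpf (3200 CPM), ndufa3 in yolk at 26 hpf (46.7 CPM), ndufb10 in yolk at 10 hpf (16.7 CPM), cox5ab in yolk at 48 hpf (112 CPM) and sdhaf4 in whole embryo at 10 hpf (5.23 CPM). The lowest was far from the rest for sdhc in whole embryo at 10 hpf (9.07 CPM) and ndufa4 in whole embryo at 10 hpf (0 CPM). At the edge of detection, single libraries with counts stood out for cox6b1 in yolk at 10 hpf (0.379 CPM) and for cox8b in yolk at 6 hpf (0.0678 CPM) and 10 hpf (0.455 CPM).

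The change between neighbouring ages differed between yolk and whole embryo in 20 of 75 tests of these members (edgeR quasi-likelihood test, Benjamini-Hochberg adjusted over all genes; log2 difference, yolk minus whole embryo). Some of these members were named for such differences, so this count is no share of all members. All 20 calls used TMM scaling. Those also called with library totals and with scaling by the nuclear members were atp5if1b at the first step and ndufaf4 and cox4i2 at the last. At the second step they were ndufaf7, ndufa3, cox7a2l, ndufa10, cox4i2, ndufv1 and sdhdb. The other calls listed were not made under all 3 scalings. From 6 to 10 hpf the difference was 2.77 for atp5if1b (adjusted p = 2.5e-06), 1.88 for cox4i2 (0.0071), 1.1 for cox5ab (0.007), 0.83 for sdhc (0.031) and 0.74 for uqcrh (0.01). From 10 to 26 hpf it was 2.11 for ndufaf7 (adjusted p = 3.3e-05), 1.64 for ndufa3 (1.3e-05), 1.22 for sdhaf4 (0.018), 1.04 for cox7a2l (0.0011), 0.98 for ndufa10 (0.0058) and 0.54 for sdha (0.034). At the same step it was -2.08 for cox4i2 (adjusted p = 0.0025), -1.2 for ndufv1 (0.00015) and -1.03 for sdhdb (0.0029). From 26 to 48 hpf it was 1.56 for ndufaf4 (adjusted p = 0.0047), -1.95 for cox4i2 (0.0061), -1.22 for atp5if1b (0.019), -0.78 for uqcrc2a (0.02), -0.74 for COX3 (0.017) and -0.69 for mt-cyb (0.029).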

How the results depend on the processing

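With library totals alone the direction of the nuclear class in yolk against whole embryo turned from 10 to 48 hpf, from 29 members higher and 14 lower to 5 and 59 at 10 hpf, from 49 and 1 to 3 and 54 at 26 hpf, and from 34 and 1 to 5 and 25 at 48 hpf. The tissue order of the ratio of mitochondrially encoded to nuclear counts was the same at all 4 ages without assembly factors. With medians of member levels the log2 difference at 26 hpf was 0.46 in place of 0.77, and the tissues overlapped at 26 and 48 hpf. Library totals alone moved most counts of calls. In yolk against whole embryo they gave 61 nuclear members lower at 6 hpf in place of 34. At 10, 26 and 48 hpf they gave 6, 1 and 0 mitochondrially encoded members higher (13 each). For the steps, 38 nuclear members rose in yolk from 26 to 48 hpf (12) and 53 in whole embryo from 6 to 10 hpf (24). Of the mitochondrially encoded members, 4, 6 and 0 fell at the 3 yolk steps (0, 2 and 2) and 0 and 0 at the first 2 whole-embryo steps (3 and 1). For the difference between tissues, 3 and 8 nuclear members passed upwards at the first 2 steps (28 and 23), 1 passed downwards at the last (4), and 0, 1 and 0 mitochondrially encoded passed downwards (0, 0 and 2). DESeq2 size factors gave 22 nuclear members higher in yolk at 48 hpf, 4 and 0 mitochondrially encoded falling in yolk from 26 to 48 and in whole embryo from 10 to 26 hpf, and 12 upwards and 10 downwards for the differences at the second and last step. The DESeq2 Wald test gave 1 and 4 mitochondrially encoded falling at the first and last yolk steps and 0 from 10 to 26 hpf in whole embryo, 59 and 13 nuclear members rising at the last 2 whole-embryo steps (38 and 7), and 12 upwards and 13 downwards for those differences. With the groups compared only, 21 nuclear members were lower in yolk at 6 hpf and 61 higher at 48 hpf, 3, 1 and 0 mitochondrially encoded fell at the yolk steps, and 8 nuclear and 1 mitochondrially encoded passed downwards for the last difference. The replicate block over all libraries gave 1 and 4 mitochondrially encoded falling at the first and last yolk steps. Within the groups compared the block gave 65 nuclear members higher in yolk at 48 hpf, 3, 0 and 0 mitochondrially encoded falling in yolk from 6 to 10, in yolk from 26 to 48 and in whole embryo from 10 to 26 hpf, and 11 nuclear rising in whole embryo from 26 to 48 hpf; it left the other 15 counts within 1.5 times. Leaving out 1 library gave 22 to 33 nuclear members higher in yolk at 48 hpf (22 without whole embryo replicate 3) and 3 to 7 mitochondrially encoded higher relative to nuclear (5; 3 without whole embryo replicate 1, 2 or 3 or yolk replicate 3 or 4). Mitochondrially encoded members falling in yolk ranged over 0 to 2, 1 to 6 and 1 to 5 at the 3 steps, most without yolk replicate 4 at 6 hpf, replicate 3 at 26 hpf and replicate 1 at 26 hpf, and over 0 to 3 at the last step relative to nuclear members (0 without yolk replicate 3 at 26 hpf). Nuclear members rising in whole embryo ranged over 19 to 37 from 6 to 10 hpf and 4 to 7 from 26 to 48 hpf (4 without replicate 1 or 3 at 26 hpf), and mitochondrially encoded falling from 10 to 26 hpf over 0 to 2 (0 without replicate 2 or 3 at 10 hpf or replicate 3 at 26 hpf). For the differences, nuclear members upwards ranged over 16 to 34 and 14 to 25 (15 and 14 without whole embryo replicate 2 or 3 at 10 hpf), downwards at the last step over 1 to 7 (1 without yolk replicate 4 and 7 without replicate 2 at 26 hpf), and mitochondrially encoded downwards over 0 to 2 (0 without yolk replicate 3 at 26 hpf). The causes were not tested. Apart from library totals, no share of all genes is set beside the counts of these refits, so they show only how far the calls moved. No low-count filter and leaving out the mitochondrially encoded genes moved no count past 1.5 times. With 4 libraries a group and members at a few counts, such as cox7a1, small changes were not detectable at this depth.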

Other observations

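Single genes of the mitochondrial ribosome and of mitochondrial RNA handling had courses of their own in yolk. mrps31, a protein of the small ribosomal subunit, was at 32.1, 16.2, 24.9 and 35.7 CPM in yolk at 6 hpf, 179, 155, 183 and 146 CPM at 10 hpf, and 26.3, 33.7, 48.4 and 45.5 CPM at 26 hpf. The yolk libraries of 10 hpf lay above those of both neighbouring ages, and above whole embryo at the same age by 6.36-fold (log2 2.67 ± 0.2, adjusted p = 2.9e-12, edgeR quasi-likelihood test, Benjamini-Hochberg adjusted). mrps6, of the same subunit, fell in yolk from 124, 103, 116 and 75.8 CPM at 10 hpf to 13, 13.5, 9.62 and 16.1 CPM at 26 hpf, without overlap, and this drop exceeded that in whole embryo by 1.85 ± 0.3 on the log2 scale (adjusted p = 1.9e-05, same test).

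hsd17b10, a dehydrogenase that is also part of mitochondrial RNase P in human cells, fell in both tissues between 6 and 10 hpf. It went from 34.3, 23.7, 35.1 and 36.7 CPM to 3.46, 1.85, 3.41 and 2.22 CPM in yolk (-3.57 ± 0.27, adjusted p = 6.4e-12) and from 33.7, 43.4, 36.2 and 42.2 CPM to 3.9, 5.44, 4.27 and 5.49 CPM in whole embryo (-3.02 ± 0.26, adjusted p = 2.3e-10, same test). tfam rose over this step in yolk, to 18.3, 15.7, 17.4 and 18 CPM, 2.7-fold (1.44 ± 0.18, adjusted p = 9.4e-08, same test). All these calls were also made with library totals alone.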
